A study of Mus musculus with 2 samples.

Results

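The genes described here are 32 cardiac genes that are known targets of GATA4 in the heart or that build the contractile apparatus of the cardiomyocyte. They were examined in a GATA4 ChIP-seq of whole adult mouse liver. A gene was counted as having a GATA4 occupied site (OS) when the midpoint of a site lay in the gene body or within 10 kb of it. The genes were 32 of 22219 protein-coding gene names, and the other 22187 names served as background. The ChIP was made with the GATA4 C-20 antibody (Santa Cruz) on livers of mice of a C57BL/6 x Sv129 background, aged 2 to 3 months by the labels. Input DNA from liver of the same strain and age, taken without antibody, was the control for peak calling. The 2 biological replicates, each of whole liver from 2 mice, were merged by the authors before the lists were deposited, so each list stands for 1 pooled sample and no value below has a replicate error. Whole liver holds hepatocytes, endothelial cells, stellate cells and others, and a site occupied in few cells cannot be told apart from a site weakly occupied in many.

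GATA4 is a zinc finger transcription factor that binds DNA through the sequence WGATAR, in which W is A or T and R is A or G. In the heart it works beside NKX2-5, TBX5, MEF2C and HAND2, and it activates genes of natriuretic peptides, myosins and troponins. In the liver GATA4 is found in hepatocytes and, at high levels, in sinusoidal endothelial cells. The question put to the data was whether sites that GATA4 occupies in liver lie at the genes it is known to regulate in heart.

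A GATA4 OS was found at 4 of the 32 cardiac genes (12.5%, Wilson 95% interval 4.97% to 28.1%), against 13.7% of all other protein-coding genes (3038 of 22187). The 4 genes were Tbx5, Myh7, Tnnc1 and Gja5, and together they held 5 sites. The share at the cardiac genes was close to the background, and its interval contained it. Tnnc1 was counted only through the longer of its annotated gene models. The 28 genes without a site included both natriuretic peptides, all 5 calcium handling genes, 9 of the 10 transcription and chromatin factors, 10 of the 12 filament and Z disc genes, and 2 of the 3 connexins and channel.

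The sequences of 4 of these sites are shown, that of the lowest list number at each gene counted as having a site. Each is the plus strand of mm9 over the deposited interval, named by its number in the common list, with WGATAR on either strand in capitals.
OS 700, Tbx5 intron, chr5:120325506-120325742: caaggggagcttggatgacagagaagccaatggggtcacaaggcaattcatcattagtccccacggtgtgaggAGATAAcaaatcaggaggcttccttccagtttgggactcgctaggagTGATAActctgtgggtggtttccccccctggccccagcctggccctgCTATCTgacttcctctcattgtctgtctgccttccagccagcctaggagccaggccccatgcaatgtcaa
OS 1427, upstream of Myh7, chr14:55621299-55621504: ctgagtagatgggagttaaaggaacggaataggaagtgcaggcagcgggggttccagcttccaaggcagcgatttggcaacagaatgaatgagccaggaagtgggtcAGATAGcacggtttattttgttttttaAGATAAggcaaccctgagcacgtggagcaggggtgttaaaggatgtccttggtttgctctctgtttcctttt
OS 429, counted for Tnnc1, chr14:31981757-31981993: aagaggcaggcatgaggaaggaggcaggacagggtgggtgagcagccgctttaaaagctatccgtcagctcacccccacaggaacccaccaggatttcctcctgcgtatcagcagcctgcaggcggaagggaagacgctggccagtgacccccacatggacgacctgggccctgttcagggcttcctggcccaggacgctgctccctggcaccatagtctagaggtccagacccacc
OS 2952, Gja5 intron, chr3:96757851-96757993: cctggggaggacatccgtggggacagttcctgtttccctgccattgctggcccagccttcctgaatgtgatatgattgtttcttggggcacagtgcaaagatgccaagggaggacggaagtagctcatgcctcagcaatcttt
The first of these holds 3 WGATAR sequences and the second holds 2. The sites at Tnnc1 and Gja5 hold none.

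The next sequences are the promoters of 4 genes known as targets of GATA4 in the heart, and none of them overlapped a site in liver. Each runs from 250 bases before to 50 bases from the transcription start site (TSS) of the longest protein-coding transcript, on the strand of the gene, from the mm9 genome, again with WGATAR in capitals.
Nppa, chr4:147374581-147374880, plus strand: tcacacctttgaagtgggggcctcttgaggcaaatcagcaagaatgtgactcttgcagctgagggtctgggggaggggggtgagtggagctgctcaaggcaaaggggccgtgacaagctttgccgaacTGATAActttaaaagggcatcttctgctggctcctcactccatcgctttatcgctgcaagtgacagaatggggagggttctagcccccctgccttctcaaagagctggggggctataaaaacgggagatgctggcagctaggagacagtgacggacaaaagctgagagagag
Nppb, chr4:147359647-147359946, plus strand: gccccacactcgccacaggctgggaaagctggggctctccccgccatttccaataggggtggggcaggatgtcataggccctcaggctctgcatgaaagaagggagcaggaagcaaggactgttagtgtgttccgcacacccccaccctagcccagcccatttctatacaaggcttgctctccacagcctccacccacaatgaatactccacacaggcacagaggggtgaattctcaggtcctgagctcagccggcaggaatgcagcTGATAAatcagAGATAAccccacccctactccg
Myh6, chr14:55585395-55585694, minus strand: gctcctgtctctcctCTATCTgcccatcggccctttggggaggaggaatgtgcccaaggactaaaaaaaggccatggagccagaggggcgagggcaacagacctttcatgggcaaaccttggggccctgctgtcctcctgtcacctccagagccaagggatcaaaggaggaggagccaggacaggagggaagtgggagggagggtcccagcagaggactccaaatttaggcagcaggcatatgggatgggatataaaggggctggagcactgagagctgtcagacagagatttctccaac
Nkx2-5, chr17:26978461-26978760, minus strand: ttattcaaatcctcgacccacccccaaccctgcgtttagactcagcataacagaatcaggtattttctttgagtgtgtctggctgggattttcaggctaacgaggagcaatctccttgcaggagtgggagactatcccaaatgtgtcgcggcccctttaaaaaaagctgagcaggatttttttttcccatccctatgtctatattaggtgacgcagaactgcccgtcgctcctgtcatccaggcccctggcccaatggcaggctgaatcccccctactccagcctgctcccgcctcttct
Counted from the TSS, the Nppa sequence begins at -122. The pair in Nppb begins at 17 and 28, downstream of the annotated TSS. The Myh6 sequence begins at -235, and the Nkx2-5 window holds no WGATAR.

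Tbx5 encodes a T-box factor required for the formation of the atria and the conduction system. Its site, number 700 of the 4409 in the common list, was 237 bp wide and lay in intron 8 of a gene of 9 exons, 40952 bp downstream of the TSS. The Tbx5 TSS was the nearest TSS to it. The 3 WGATAR sequences lay 43 bp before, 4 bp after and 51 bp after the midpoint. The site carried number 707 in the SPP list and 744 in the MACS2 list. The common list is the intersection of these lists, so every common site is in both and this adds no support. All entries carry the same score of 1000 and the lists do not state what their numbering follows, so a number gives a place in the list and no strength. No other common site lay in the Tbx5 window.

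Myh7 encodes the slow beta myosin heavy chain, and Myh6, which lies next to it on chromosome 14, encodes the fast alpha chain. Site 1427 was 206 bp wide and lay 7930 bp upstream of the Myh7 TSS, in no protein-coding gene. Its 2 WGATAR sequences lay close to the midpoint, 7 and 34 bp after it. The site was number 1438 in the SPP list and 1108 in the MACS2 list. It was also the nearest site to Myh6, but 35637 bp upstream of that TSS, beyond the 10 kb window. Of the 48-bp words sampled in the Myh6 and Myh7 windows, 93.8% and 94.0% occurred once in the genome. This share bears on the count because the authors kept only reads that aligned to a single place. It was 97.1% over the windows of all 32 genes and 91.6% over those of the other genes.

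Tnnc1 encodes troponin C of slow skeletal and cardiac muscle, the calcium sensor of the thin filament. The 3.42 kb model of the gene had no site within 10 kb. The annotation holds a second, longer model of the same name, which starts 38.5 kb upstream and runs across Nisch, and the 2 sites counted for Tnnc1 fall in its window. Site 429 lay 48 bp upstream of the TSS of Stab1, which encodes a scavenger receptor of sinusoidal endothelium, and 39623 bp upstream of the usual Tnnc1 TSS. Site 3159 (chr14:31994798-31994932, 135 bp) lay in intron 13 of Nisch, 26633 bp upstream of the usual Tnnc1 TSS, and holds no WGATAR. Without the longer model, Tnnc1 had no site and the count was 3 of 32 genes (9.38%) with 3 sites.

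Gja5 encodes connexin 40, which joins cells of the atria and the conduction system and also arterial endothelium. Site 2952, 143 bp wide, lay in intron 1 of the longest annotated transcript, 49306 bp downstream of its start. The other 2 annotated transcripts start 78417 bp downstream of the site. The site was number 3011 in the SPP list and 1362 in the MACS2 list.

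**Figure D1:**
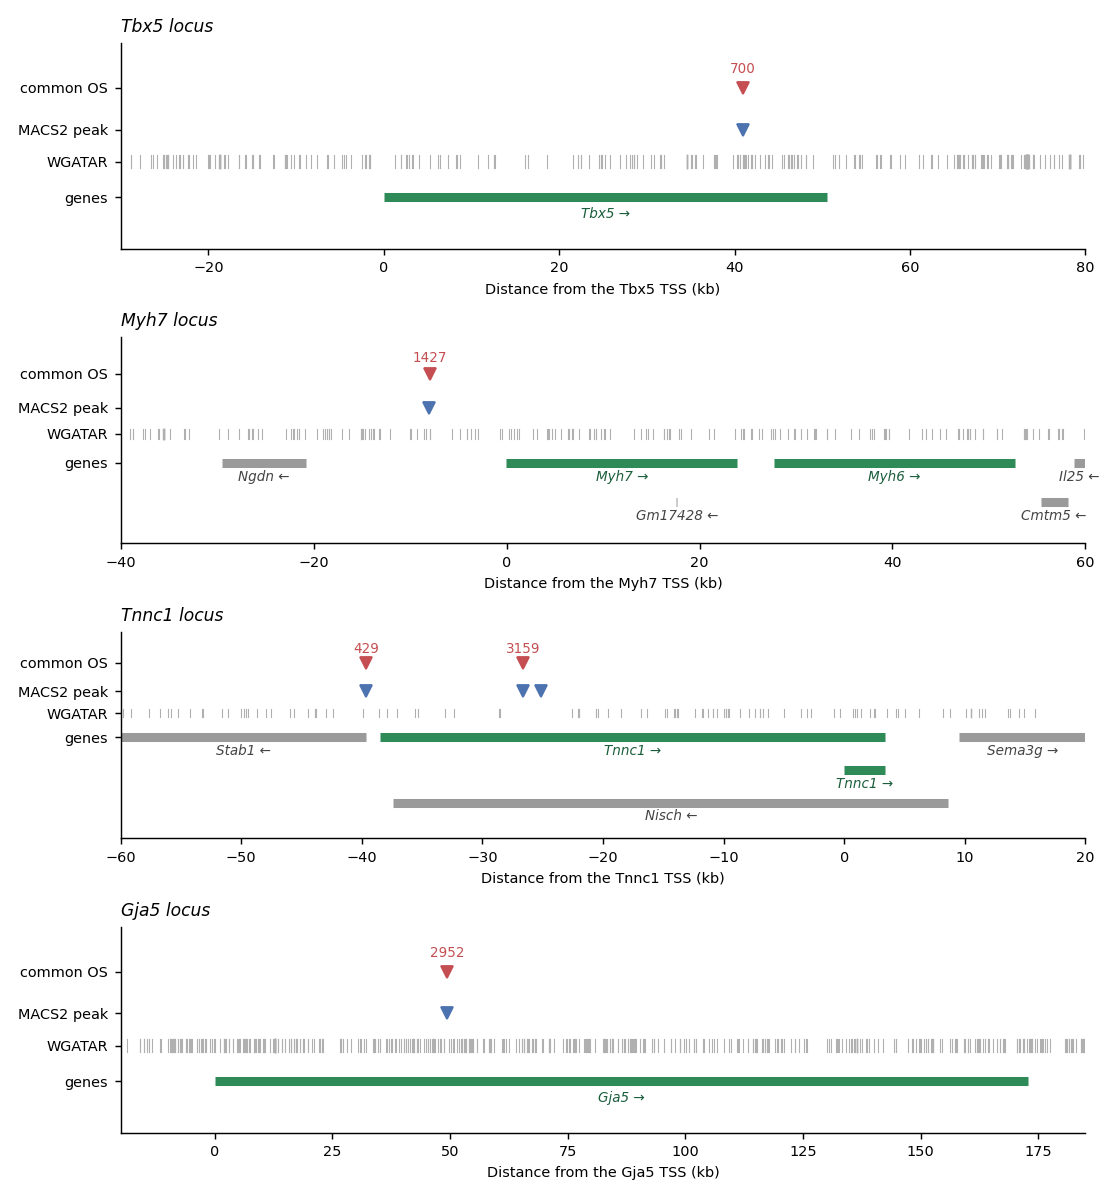
Maps of the 4 cardiac loci with a common GATA4 OS. The horizontal axis is the distance from the TSS of the named gene in kb, in its direction of transcription. Red triangles are common sites with their list numbers, blue triangles are MACS2 peaks, grey ticks are WGATAR sequences, and green bars are cardiac genes and grey bars their neighbours, which are not drawn at Gja5. Sites 429 and 3159 lie far upstream of the short Tnnc1 model, near Stab1 and within Nisch.

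The lists of the separate callers gave similar counts. By the SPP list the same 4 genes had a site, against 14.5% of the other genes. The common sites are a subset of the SPP sites, so these genes had to recur and only further genes could appear. By the MACS2 list there were 5 genes (15.6%), against 17.4%. The gene added was Myl2, the regulatory light chain of ventricular myosin, through MACS2 peak 5285 at chr5:122559237-122559787. That peak was 551 bp wide, lay in intron 7 of Myl2 (and in intron 11 of the overlapping gene Ccdc63), 8552 bp downstream of the Myl2 TSS, held 2 WGATAR sequences, and overlapped no common site. MACS2 also placed a further peak (number 4310) in Nisch, in the window of the longer Tnnc1 model, which held no WGATAR.

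Gene length moves with the share of genes that have a site. With all protein-coding genes cut into 5 length classes of equal size, 4.55% of the other genes in the shortest class and 24.7% in the longest had one. The median length of the cardiac genes was 15.7 kb, against 15.5 kb for the other genes. In the longest class, above 54.7 kb, only Gja5 of 9 cardiac genes had a site, and titin (Ttn), the ryanodine receptor (Ryr2) and the sodium-calcium exchanger (Slc8a1) had none. In the next class 2 of 6 had one (Tbx5 and Myh7), in the shortest 0 of 4. Tnnc1, placed by its short model, was the 1 of 8 in the next to shortest class. At the lengths of the 32 genes the other genes' shares would give 15.1%, or 4.84 genes. Per Mb of window there were 1.80 sites at the cardiac genes (2.77 Mb) and 2.54 at the other genes (1251 Mb). The cardiac rate includes the 2 sites counted through the longer Tnnc1 model, without which 3 sites remained.

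**Figure D2:**
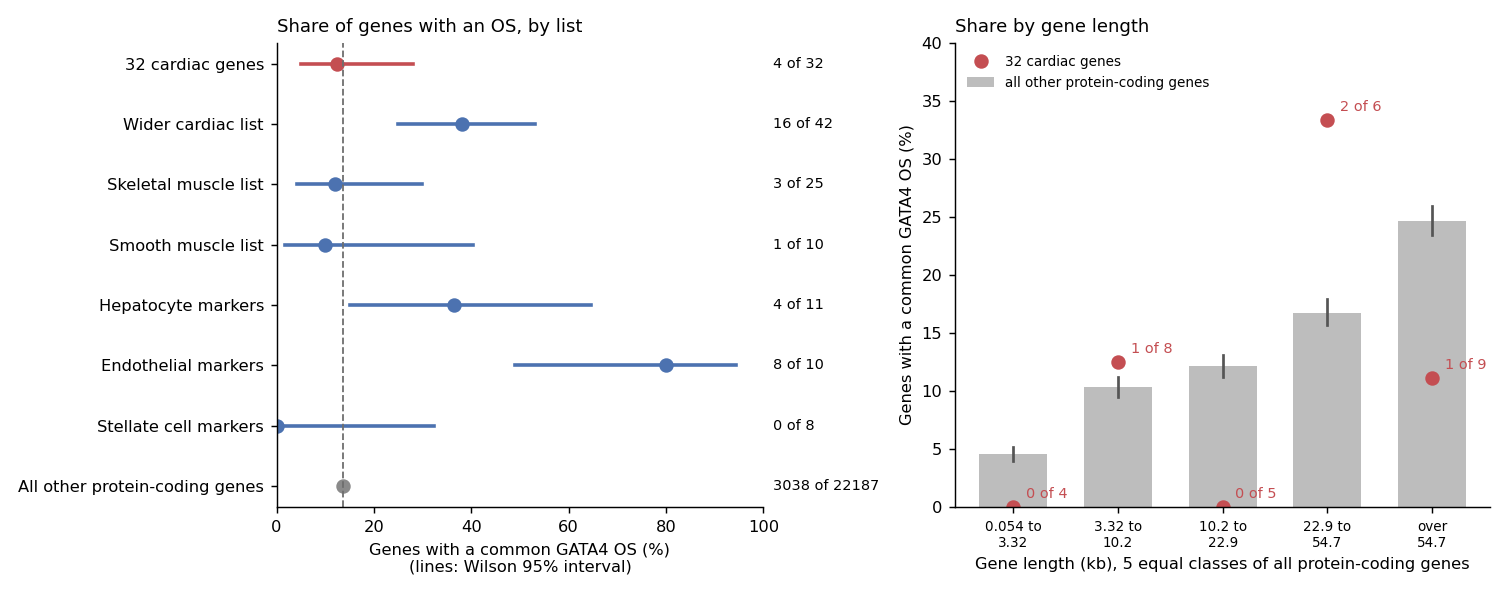
Left, the percentage of genes with a common GATA4 OS in the gene body or within 10 kb, by gene list, with Wilson 95% intervals and the counts at the right. The dashed line marks all other protein-coding genes (13.7%), and the 32 cardiac genes (4 of 32) lie next to it. Right, the same percentage by 5 classes of gene length: bars are all other genes with Wilson intervals, and points are the cardiac genes with their counts.

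The distance from each TSS to the nearest site gave a measure that does not depend on the 10 kb limit. Its median was 146.9 kb for the 32 genes (quartiles 39.7 and 406.9 kb) and 177.3 kb for the other genes (57.4 and 504.7 kb). No cardiac gene had a site within 1 kb of its TSS, against 2.63% of the other genes. Within 50 kb there were 11 of 32 (34.4%), against 22.7%. For 4 of those 11 genes (Tbx5, Myh7, Myl7 and Actc1) their own TSS was the nearest to the site (36.4%), against 47.3% of the other genes within 50 kb. For 7 of the 11 another gene lay nearer.

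The natriuretic peptide genes Nppa and Nppb, which lie side by side and encode the hormones ANP and BNP of atrium and ventricle, shared their nearest site. It lay in intron 19 of Mtor, 471851 bp from the Nppa TSS and 486785 bp from the Nppb TSS. Of the other genes, 73.7% and 74.3% had a nearer site.

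Among the transcription and chromatin factors the median distance was 384 kb, and only Tbx5 of 10 had a site within 50 kb of its TSS. Nkx2-5, a homeobox factor that pairs with GATA4, was 141531 bp from its nearest site. The T-box gene Tbx20 was 125098 bp from a site whose nearest TSS was its own. The bHLH genes Hand1 and Hand2 were at 151370 bp (nearest TSS Larp1) and 147847 bp (Scrg1 intron 1). These 4 genes stood closely together and near the cardiac median. The cardiac ankyrin repeat gene Ankrd1 (616876 bp, at the promoter of Ppp1r3c), the serum response factor partner Myocd (669335 bp), the LIM homeobox gene Isl1 (714215 bp) and the histone methyltransferase Smyd1 (771076 bp) stood much farther out. Mef2c, which encodes a MADS-box factor, was the farthest of all 32, at 2134868 bp from a site in intron 83 of Gpr98, and 95.5% of the other genes had a nearer one.

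The 12 filament and Z disc genes had a median distance of 35.8 kb, against 177.3 kb for all other genes, and 8 of them (66.7%) had a site within 50 kb of the TSS, against 22.7%. These 8 genes shared 7 sites, since site 1427 was the nearest to both Myh6 and Myh7. For 5 of the 8 the TSS of another gene lay nearer to the site, and the own TSS was nearest for 37.5%, against 47.3% of the other genes within 50 kb. The gene classes were drawn up with earlier results of these data known, and the difference from the other genes was not tested. After Myh7 at 7.93 kb came the atrial light chain Myl7 at 20860 bp. The troponin I gene Tnni3 was 21338 bp from a site 1211 bp upstream of Ppp1r12c. The myosin binding protein gene Mybpc3 (34959 bp, intron 28 of Madd), Myl2 (35974 bp, intron 1 of Ccdc63) and the actin gene Actc1 (45746 bp, in no gene and with its own TSS nearest) followed. The other 4 lay farther out: the troponin T gene Tnnt2 (153941 bp), the alpha-actinin gene Actn2 (203632 bp), Ttn (291529 bp, intron 6 of Plekha3) and the light chain gene Myl3 (396691 bp, intron 3 of Scap). Measured from the gene body, Ttn was the first outside the window, with a site 12962 bp from its end, and Myh7 at 7930 bp was the last inside it.

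No calcium handling gene had a site within 50 kb of its TSS, and their median distance was 259 kb. The sarcoplasmic pump gene Atp2a2 was 129736 bp from a site 13 bp upstream of Gpn3. The calsequestrin gene Casq2 was at 145861 bp (nearest TSS Slc22a15). Phospholamban (Pln), the inhibitor of that pump, was 259226 bp from a site 49 bp upstream of Asf1a. Slc8a1 was at 280900 bp and Ryr2 at 437447 bp, the latter sharing its nearest site with Actn2. For Atp2a2, Pln, Ankrd1 and Kcnh2 (12.5% of the 32 genes) the nearest site stood within 1 kb of the TSS of another gene, against 20.1% of the other genes. Kcnh2, a potassium channel gene of cardiac repolarisation, was 14102 bp from a site in intron 1 of Nos3 (endothelial nitric oxide synthase), 896 bp downstream of the Nos3 TSS. Gja1, which encodes connexin 43 of the working myocardium, was 67356 bp from a site whose nearest TSS was its own.

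**Figure D3:**
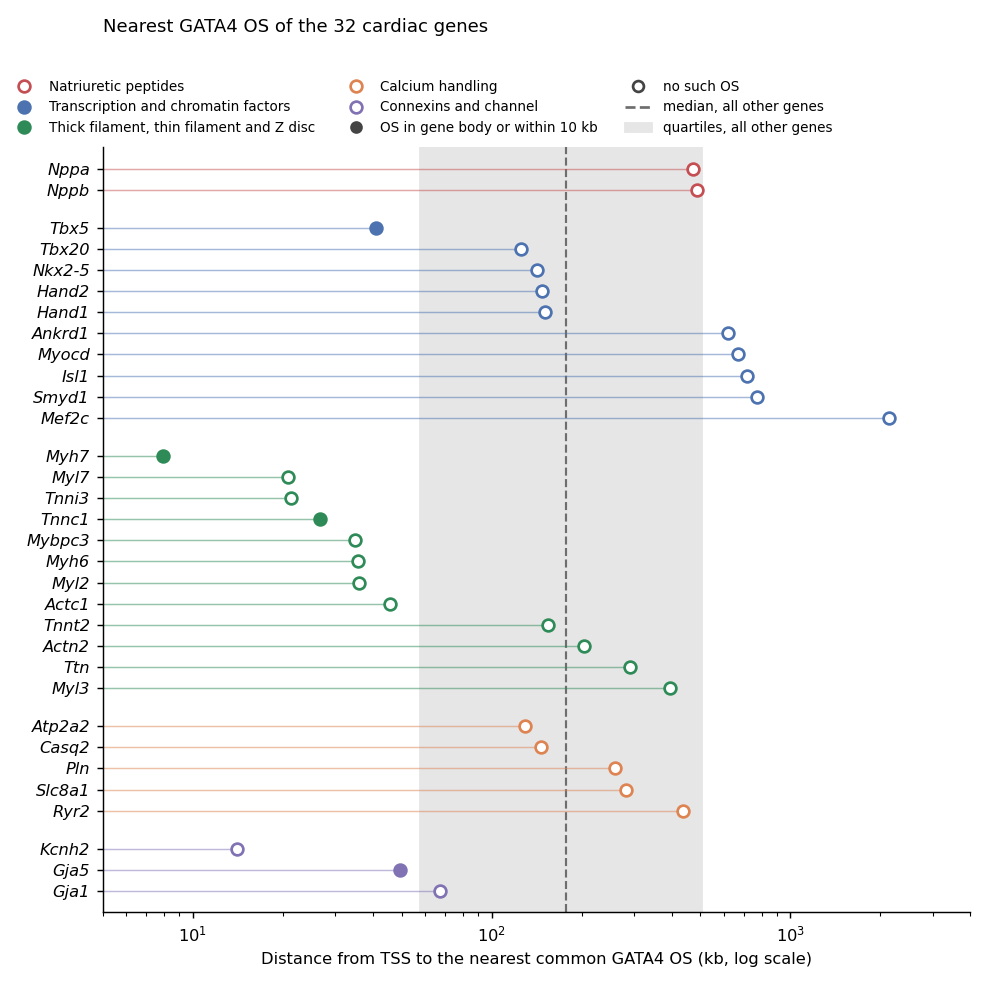
Distance in kb, on a log scale, from the TSS of each cardiac gene to the nearest common GATA4 OS, by gene class. Filled points are the 4 genes with a site in the gene body or within 10 kb, and the dashed line and grey band give the median (177.3 kb) and quartiles of all other protein-coding genes. Of the filament and Z disc genes, 8 lie left of the band, while the natriuretic peptide and calcium handling genes lie within it.

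Pooled over their windows, the cardiac genes held 6560 WGATAR sequences, 2.37 per kb, against 2.39 per kb in the windows of the other genes. Long genes weigh most in this value, and Ryr2 alone held 1542. By class the density was 2.66 per kb at the calcium handling genes and 2.47 at the transcription and chromatin factors. It was 2.23 at the connexins and channel, 2.09 at the natriuretic peptides and 1.92 at the filament and Z disc genes. Single genes ran from 0.984 per kb at Myl2 to 3.53 at Pln. Of these 6560, 5 lay in a common site (0.0762%), against 0.136% in the windows of the other genes (4058 of 2984508). With the wider MACS2 peaks the share was 0.183% (12 sequences), against 0.298% for the other genes. The 5 in common sites are the capitals shown at Tbx5 and Myh7. Within 2 kb of the TSS the counts ran from 2 at Nkx2-5 to 16 at Ttn, with 7 at Nppa, 15 at Nppb and 14 at Pln, and none of these was in a site.

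**Figure D4:**
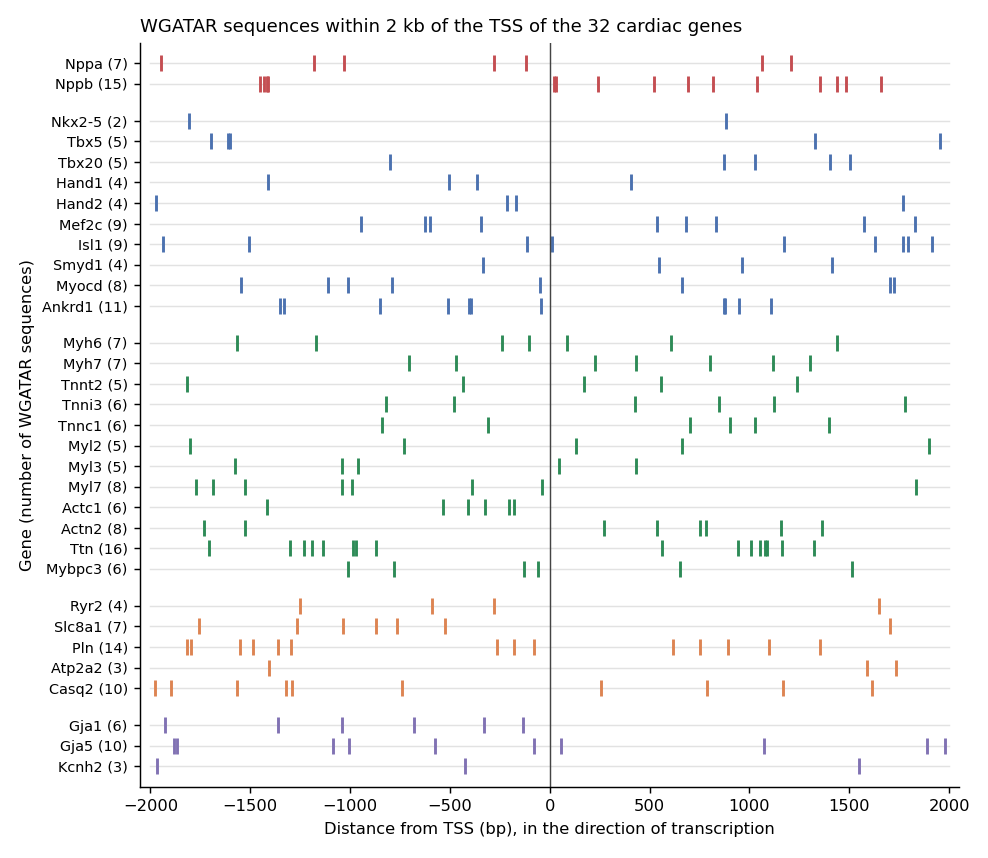
WGATAR sequences on either strand within 2 kb of the TSS of the 32 cardiac genes, with the horizontal axis in bp from the TSS. Each tick is 1 sequence, colours mark the gene classes, and the number of ticks follows each name. Every gene holds at least 2, and no common GATA4 OS lies within 1 kb of any of these TSSs.

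In the 300-base promoters, WGATAR was present at 13 of the 32 cardiac genes (40.6%, Wilson 95% interval 25.5% to 57.7%) and at 26.9% of the others (5964 of 22187). None of the 13 overlapped a common site, against 3.54% of the others with the sequence (211 of 5964). The 13 were Nppa, Nppb, Hand2, Isl1, Myocd, Ankrd1, Myh6, Myl3, Myl7, Mybpc3, Pln, Gja1 and Gja5. The sequence began at -47 in Ankrd1, -54 in Myocd, -42 in Myl7 and -80 in Gja5, and Mybpc3, Pln and Hand2 held a pair upstream of the TSS.

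WGATAR was present in 2 of the 5 sites at the cardiac genes (40%, Wilson 95% interval 11.8% to 76.9%), against 82.9% of all 4409 sites (3655). Without the longer Tnnc1 model it was 2 of 3 (66.7%, Wilson 95% interval 20.8% to 93.9%). The looser letters WGATA or GATAR were in all 5, against 92.9%. The letters AGGAAG or their reverse complement CTTCCT, a core bound by ETS family factors, were also in all 5, against 42.8% of all sites. CANNTG, the E-box, was in 3 of 5, against 60.3%. TGTTTAC or GTAAACA, the forkhead core, was in none, against 6.26%. The sites had a median GC content of 53.8% (range over the 5 sites 48.1% to 62.4%), against 49.4% for all sites (range 28.6% to 79.8%). Their median width was 206 bp, against 190 bp. These are matches of letters over 5 sites, and the sites at Tnnc1 count among them.

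Other muscle genes, listed with earlier results of these data known, gave the following shares beside the background of 13.7%. In a wider cardiac list 16 of 42 genes had a common site (38.1%, Wilson 95% interval 25% to 53.2%), in a skeletal muscle list 3 of 25 (12%), and in a smooth muscle list 1 of 10 (Mylk). The genes of the wider cardiac list were longer, with a median of 29.1 kb, and at their lengths the other genes' shares would give 16.9%, or 7.11 genes. In the wider cardiac list 20 of the 21 sites held WGATAR, 17 had the listed gene as the nearest TSS, and 5 lay within 1 kb of its TSS. The genes included Gata4 itself (a site 15524 bp downstream of the 5′ end of the gene model, but at -10897 bp, that is upstream, from the TSS of the longest transcript), Gata6 (1061 bp upstream of its TSS), the factors Srf, Mef2d and Tbx2, and the secreted ligand Bmp10 with 3 sites, the nearest 260 bp upstream of its TSS. They also included the potassium channel gene Kcnj2 (40 bp upstream), Kcnq1, Cacna1c, the natriuretic peptide protease gene Corin, and the Z disc and adhesion genes Ldb3, Xirp1, Nebl, Mypn and Vcl, with the atrial light chain Myl4. None of the 3 skeletal muscle genes (Tnnt1, Mylpf and Mybpc2) was the nearest gene to its site, and the site at Tnnt1 was also the nearest to Tnni3.

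For the tissue itself, a common site was found at 8 of 10 endothelial markers (80%), with 21 sites. It was found at 4 of 11 hepatocyte markers (36.4%) and at 0 of 8 stellate cell markers. The share of all other protein-coding genes was 13.7%. At the lengths of the markers the other genes' shares would give 19.0% (1.90 genes), 13.0% (1.43 genes) and 16.8% (1.34 genes), in the same order. The marker lists are short, and the differences were not tested. Of the 5 sites counted for cardiac genes, 1 was the promoter site of the endothelial marker Stab1. The part of each liver cell type in the sites at the cardiac genes was not tested.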

How the data were processed

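GATA4 ChIP DNA and input DNA came from adult mouse liver. The authors aligned 48-bp reads to mm9 with Bowtie 0.12.7, kept uniquely placed reads, and called peaks on 2 replicates and their pool, against pooled input, with SPP and MACS2 2.0.10 under an irreproducible discovery rate protocol. They deposited the SPP list (4811 regions), the MACS2 list (5867 regions) and their intersection by bedtools 2.16.1 (4409 regions, in SPP coordinates). The deposited score is 1000 in every row and ranks nothing. Depth was not used here, and the number of genes limits the precision of the counts.

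Midpoints were assigned to GENCODE M1 protein-coding genes (mm9), with models of 1 name merged. The TSS was the 5′ end of the model with the longest transcript, and promoters and nearest genes used that transcript. The reference promoter table is of another build, so promoters were cut from the mm9 genome. WGATAR was searched on both strands (Python 3.11.15, pysam 0.24.0). Words of 48 bp were taken every 50 bp in cardiac windows and at 20000 random points in the others. The steps were checked on simulated data. The hepatocyte marker Tf was not matched by name. Wilson intervals (95%) cover counting only. The genes, their classes and the lists were chosen with earlier results of these data known, and all 32 genes are named. Some neighbouring genes are not reported here. With 1 pooled sample no test between samples was possible. Alternatives were the SPP and MACS2 lists, the first 2204 sites of the common list, other windows, overlap in place of midpoint, other transcript models and other motif settings.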

Additional observations from a re-analysis of the deposited data

How the results depend on the processing

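Of 49 alternative values for 7 results, 34 stayed within 1.5 times the reported count or within its interval, and 15 moved. The number of sites at the 32 genes was 5, and it was 3 with the first 2204 sites of the list, 3 in gene bodies alone, 3 with the longest transcript, and 3 without the longer Tnnc1 model, an alternative chosen after seeing the data. With a window of 50 kb there were 13 sites at 13 of the 32 genes (40.6%), and 6144 of the other genes had a site (27.7%). The count of other genes was 1606 with the first 2204 sites (7.24%) and 1710 in gene bodies alone (7.71%). By nearest TSS within 50 kb it was 2439 (11.0%). Of the 32 genes, 3 had a site (9.38%) with the first 2204 sites, and 3 in gene bodies alone. By nearest TSS there were 4 (12.5%), namely Tbx5, Myh7, Myl7 and Actc1. In these settings the share at the 32 genes was thus slightly above that of the other genes. The 3 genes with the first 2204 sites, and the 3 in gene bodies alone, included Tnnc1, counted through its longer model. The share was below that of the other genes in the main setting, by overlap, and with the SPP and MACS2 lists. It was also below with a window of 5 kb (9.38% against 11.4%) and with the longest transcript (9.38% against 13.2%). The wider cardiac and muscle lists held 20 genes with a site, and 13 with the first 2204 sites, 12 in gene bodies alone and 13 by nearest TSS within 50 kb. The share of sites with WGATAR was 100% with WGATA or GATAR and 66.7% without the longer Tnnc1 model. The share of WGATAR sequences in a site was 0.183% with the MACS2 list, against 0.298% for the other genes. The MACS2 peaks are wider (median 618 bp against 190 bp). No paired analysis was possible because each list holds 1 pooled sample, and no replicate could be left out.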
